A study of Caenorhabditis elegans with 2 samples.

Results

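The Hox genes of Caenorhabditis elegans and the genes of their TALE-class cofactors were examined for sites bound by HLH-8, the Twist-family basic helix-loop-helix factor of the worm. The set is a list by gene family and holds 10 of 19973 nuclear protein-coding genes. Of these, 6 are Hox genes (ceh-13, lin-39, mab-5, egl-5, php-3 and nob-1) and 4 are TALE genes (ceh-20, ceh-40, ceh-60 and unc-62). It does not hold every TALE gene, and psa-3 and irx-1 are given apart from it. All called sites within 5000 bp of each gene or in its introns were collected, which gave 58 of the 25904 pooled candidates. The chromatin immunoprecipitation sequencing (ChIP-seq) data come from 2 biological replicates that form 1 group, so no condition was compared with another. Both replicates were whole hermaphrodite late embryos of the transgenic strain OP63, whose HLH-8 carries GFP-FLAG at its C terminus. The embryos were taken 3.5 hours after synchronization by bleaching, and the tagged protein was precipitated with an antibody against GFP. Because the whole organism was used, the cells that hold a bound site could not be told apart. Which promoter drives the tagged protein is not stated in the labels, and an untagged strain was not analysed here.

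Hox proteins are homeodomain transcription factors that give cells along the body axis their regional identity. They bind DNA together with TALE homeodomain proteins, among them CEH-20, CEH-40 and CEH-60 of the Pbx class and UNC-62 of the Meis class. HLH-8 acts in the M lineage, the postembryonic mesoderm that gives rise to body wall muscles, coelomocytes and the egg-laying muscles. LIN-39, MAB-5 and CEH-20 are known to act upstream of hlh-8 in that lineage, and the data show where HLH-8 was called at their own genes.

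The deposited lists hold candidates that include background, and an optimal list of 1120 peaks retained after a test of reproducibility between replicates. Each peak has a signal in arbitrary units given by the authors' peak caller, and rank 1 is the strongest signal of the pooled list. An optimal summit lay within 5000 bp of 3 of the 10 genes, ceh-20, unc-62 and mab-5, against 13.8% of all genes. A pooled candidate lay there for 9 of the 10 genes, against 86.2%, with ceh-60 as the exception. With a deposited q of 0.05 or below, a candidate lay near 7 of the 10, against 37.4% of genes. The 3 without one were ceh-40, ceh-60 and egl-5. Of the 7, php-3 was counted only through a site in intron 2 of nob-1, which counts for nob-1 too. The shares over all genes were not matched for gene length. The 3 optimal peaks were 5.17% of the candidates near these genes, and the optimal list was 4.32% of all candidates. Candidates with a q of 0.05 or below were 22.4% of those near these genes and 16.3% of all candidates.

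The sequences within 50 bp of the optimal and the stronger Hox summits are given here so that the E-boxes (CANNTG, the site of basic helix-loop-helix dimers) can be read in place. They are RefSeq sequence of the ce11 assembly on the plus strand, 5′ to 3′, with E-boxes in capitals. An E-box class is named by the alphabetically first of its strands, so the CATTTG printed for lin-39 is counted with the other strand's CAAATG. The first 3 are the optimal peaks, of ceh-20 at chrIII:6978945-6979045, of unc-62 at chrV:4508005-4508034, limited to 30 bases because 1 isoform has untranslated exon there, and of mab-5 at chrIII:7784417-7784517.
ceh-20: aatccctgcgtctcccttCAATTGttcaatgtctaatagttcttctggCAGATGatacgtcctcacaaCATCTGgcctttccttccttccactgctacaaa
unc-62: gatggatcgccgCAGCTGgcgacgttgaca
mab-5: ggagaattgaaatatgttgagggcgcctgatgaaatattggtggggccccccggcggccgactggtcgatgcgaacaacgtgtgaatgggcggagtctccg
The next 3 are the best ranked candidates of Hox genes below the optimal list with a q of 0.05 or below, of lin-39 at chrIII:7534807-7534907, of ceh-13 at chrIII:7558853-7558953 and of nob-1 with php-3 at chrIII:12079669-12079769.
lin-39: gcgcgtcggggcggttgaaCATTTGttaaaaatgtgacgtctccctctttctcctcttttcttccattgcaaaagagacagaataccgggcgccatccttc
ceh-13: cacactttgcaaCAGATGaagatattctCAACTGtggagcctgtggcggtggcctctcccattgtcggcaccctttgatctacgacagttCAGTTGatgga
nob-1: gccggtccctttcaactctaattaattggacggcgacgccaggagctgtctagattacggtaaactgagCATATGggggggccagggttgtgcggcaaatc
The ceh-20 and ceh-13 windows hold 3 E-boxes each, those of unc-62, lin-39 and nob-1 hold 1, and the mab-5 window holds none.

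The strongest site was at ceh-20, which encodes the Pbx-class partner of LIN-39 and MAB-5. Its peak at chrIII:6978829-6979147 lay upstream of the gene, with the summit 889 bp from the 5′ end, and ranked 63 with a pooled signal of 175.8. The signal was 56.0 in replicate 1 and 119.5 in replicate 2, a mean of 87.7 ± 44.9 (SD, n = 2). Both replicates called the site, at ranks 193 and 35 of their own lists, but replicate 2 was the higher by 1.09 on the log2 scale. The nuclear optimal peaks had a median log2 ratio of 0.18 with an SD of 0.54, and 4.10% of peaks had a higher ratio than ceh-20. One CAGATG was centred on the summit, another lay 20 bp to its right, and a CAATTG lay 30 bp to its left. Windows with at least 2 CAGATG made up 2% of nuclear optimal peaks, 22 in number, and 0.394% of nuclear pooled candidates, and ceh-20 was the 1 such site near the 10 genes. That count was chosen after the sequence had been seen.

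The remaining sites of ceh-20 were weak. A second pooled candidate, with its summit 690 bp upstream, had a signal of 21.4 and rank 7795. It was matched by the same replicate candidates as the optimal peak, so it is not a separate site in the replicates. The third, 1835 bp upstream, ranked 24872 and was called in replicate 2 alone, with a signal of 10.8. None of the 3 lay inside another gene, and the single protein-coding transcript of ceh-20 held no candidate in its 4 introns.

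unc-62, which encodes a Meis-class protein and has 18 protein-coding transcripts from 15 distinct 5′ ends, had the most candidates of the set. Its window held 20 pooled candidates in 14 separate stretches, 15 candidates in replicate 1 and 19 in replicate 2. The optimal peak, at chrV:4507797-4508240, ranked 403 with a pooled signal of 90.7. Replicate 1 gave 37.1 and replicate 2 gave 53.2, a mean of 45.1 ± 11.4 (SD, n = 2), at ranks 609 and 335, so both replicates placed it among their 1120 strongest. In 17 of the 18 transcripts the summit lies in an intron, numbered 8 of 9 in the longest ones and 3973 bp in length. In the remaining transcript it lies in the 5′ untranslated exon, 815 bp downstream of the 5′ end. A CAGCTG was centred on the summit. Over all genes with introns, 1.15% had an optimal summit in an intron, and among the 10 genes unc-62 was the 1 that did. The gene is long, and of all genes of at least 10000 bp 22.3% had an optimal summit within 5000 bp.

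The other unc-62 candidates were spread over the gene, and the optimal peak carried 17.4% of their summed signal of 521.7. The strongest of them lay 120 bp upstream of the outermost 5′ end, with a signal of 38.6, rank 2319 and a CAGATG. Replicate 1 gave it 13.1 and replicate 2 gave it 23.2. In all, 6 of the 20 had a q of 0.05 or below, against 16.3% of all pooled candidates. The 6 ranked from 403 to 3864, and each was matched in both replicates. Introns of at least 1 transcript held 13 of the 20, and the share of the window that such introns cover is not given here. Within 300 bp of an annotated unc-62 5′ end lay 7 of the 20, and 4 of the 6 with a q of 0.05 or below, while such positions covered 22.4% of the window. That distance was chosen after the values had been seen. Among the 6 were sites 89 bp and 29 bp upstream of internal 5′ ends, at ranks 3864 and 3667, and a site in intron 5 at rank 3674 with a CAACTG. The 3 candidates downstream of unc-62 lay nearer to the 5′ end of T28F12.1, and the last of them inside that gene, all at rank 16336 or weaker.

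**Figure D1:**
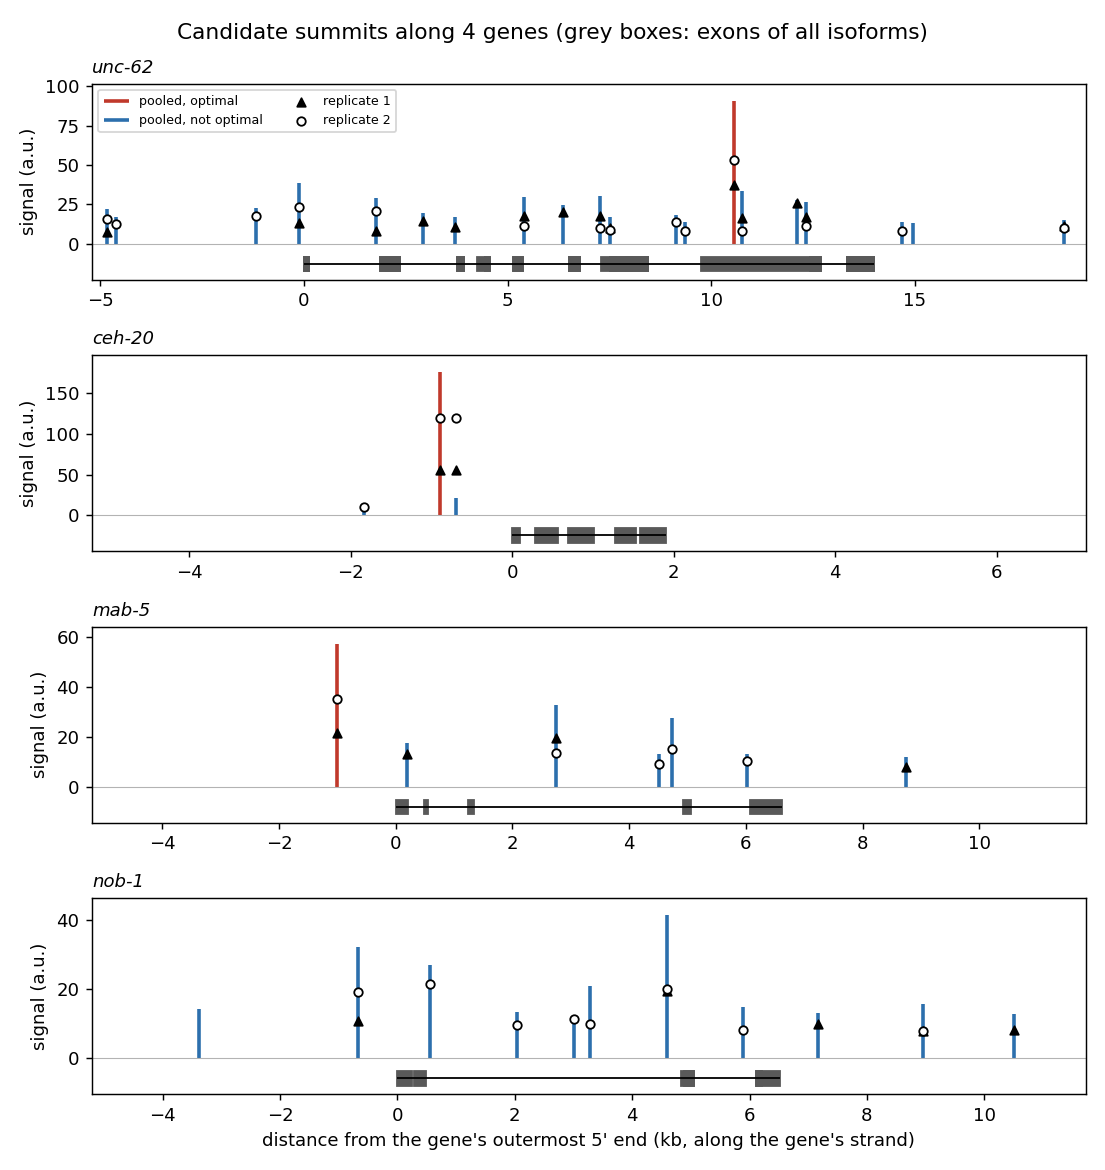
Summits of pooled candidates along unc-62, ceh-20, mab-5 and nob-1, drawn as bars of pooled signal in arbitrary units against the distance from the outermost 5′ end in kb, with triangles for replicate 1 and circles for replicate 2 where the replicate had a candidate within 200 bp. The optimal peaks of unc-62 (90.7), ceh-20 (175.8) and mab-5 (57.4) are red, grey boxes are exons of all isoforms, and the neighbouring ceh-20 candidate is shown with the replicate values that it shares with the optimal peak.

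The other Pbx-class genes had no site of comparable strength. ceh-40, on chromosome X, had 1 pooled candidate, in its 3′ untranslated region and nearer to the 5′ end of xtr-2, with a signal of 13.6 at rank 20601. Replicate 1 gave it 8.23, and replicate 2 had no candidate there. Replicate 2 had a candidate of its own 42 bp upstream of the ceh-40 5′ end, with a signal of 14.5, rank 6016 in that replicate and a CAAGTG. ceh-60, which acts in intestinal and reproductive physiology, had no pooled candidate at all. The replicates had 1 candidate each downstream of it, at different sites and at ranks 12268 and 5680. Read depth is unknown, so no limit could be set on a site that was not called.

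Of the Hox genes, mab-5 alone had an optimal peak within 5000 bp, and it was near the end of that list. MAB-5 patterns the posterior body, including the M lineage. The peak at chrIII:7784245-7784688 had its summit 1013 bp upstream of the 5′ end and a pooled signal of 57.37, rank 1119 of 1120, where the lowest optimal signal was 57.36. Replicate 1 gave 21.8 and replicate 2 gave 35.1, a mean of 28.5 ± 9.45 (SD, n = 2). In replicate 1 it ranked 1942 and in replicate 2 it ranked 879, so with the 1120 strongest candidates of replicate 1 in place of the optimal list it was not among them. None of the 10 E-box classes lay within 50 bp of the summit, and the nearest in the peak was a CAAATG at 195 bp. A promoter window from 2000 bp upstream to 500 bp downstream of a 5′ end held an optimal summit at ceh-20 and mab-5, 2 of the 10 genes, against 5.75% of all genes.

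Intron 3 of mab-5, which is 3564 bp long, held a further candidate with a q of 0.05 or below, at summit 7780701 with a signal of 33.0 and rank 3055. Replicate 1 gave 19.6 and replicate 2 gave 13.6, so here replicate 1 was the higher, and a CAGCTG lay 10 bp from the summit. The remaining 5 candidates of mab-5 ranked from 4401 to 25784, and each was matched in 1 replicate only. Of these, 3 lay nearer to the 5′ end of bath-15 and 1 nearer to that of ZK686.1, inside bath-15.

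lin-39 and ceh-13 had candidates below the optimal list. LIN-39 acts in the midbody, where it directs vulval and migrating neuroblast fates, and CEH-13 is the labial-class Hox protein of the anterior. The best lin-39 site lay in intron 1, which is 1889 bp long, 52 bp upstream of the 5′ end of the second isoform. Its pooled signal was 33.6 at rank 2972. The replicates gave 16.5 and 17.4, a mean of 16.98 ± 0.656 (SD, n = 2), so they differed little. A CAAATG lay 29 bp from the summit and 2 CAGATG lay 157 bp and 188 bp from it. The other 7 lin-39 candidates ranked from 5039 to 24674, and the 3 downstream of the gene were nearer to the 5′ end of lig-4, 1 of them inside C07H6.11. At ceh-13 the best site lay past the 3′ end of the gene, 3243 bp from its 5′ end, with a signal of 33.1 and rank 3047. Replicate 1 gave 18.1 and replicate 2 gave 14.7, and the window held a CAGATG and 2 CAACTG. Upstream of ceh-13 the better of 2 candidates lay 715 bp away, ranked 7137 and was matched in replicate 1 only.

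The posterior Hox genes egl-5, php-3 and nob-1, which belong to the Abdominal-B class, had no optimal peak within 5000 bp. The best egl-5 candidate, at rank 5356, was 1887 bp upstream and had a pooled signal of 25.2. Replicate 2 gave 16.9 and replicate 1 had no candidate there, and no E-box lay within 50 bp of its summit. php-3 and nob-1 lie 236 bp apart on the same strand and share 8 candidates within their windows, so they are not independent. Their best site lay in intron 2 of nob-1, which is 4330 bp long, and 2163 bp upstream of php-3. The pooled signal was 41.2 at rank 2060. The replicates gave 19.3 and 19.9, a mean of 19.6 ± 0.414 (SD, n = 2), the closest agreement in ratio among the 13 candidates with a q of 0.05 or below. The summit is 284 bp upstream of the 5′ end of the short nob-1 isoform and 21 bp from a CATATG, an E-box class known from HLH-8 target promoters. A second nob-1 site, 671 bp upstream of the outermost 5′ end, had a signal of 32.2 at rank 3185, with 10.8 in replicate 1 and 19.1 in replicate 2. Near the start of intron 2 a candidate of rank 4611 held a CAGATG but was matched in replicate 2 only, at 21.5.

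**Figure D2:**
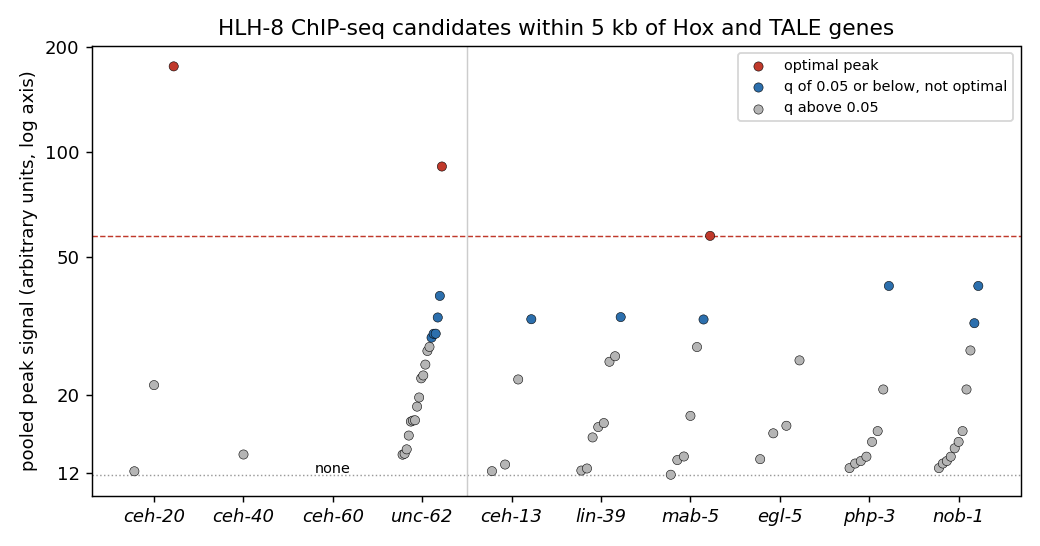
Pooled signal, in arbitrary units on a log axis, of every candidate within 5000 bp of each gene, with TALE genes left of the vertical line and Hox genes right of it. The dashed line is the lowest optimal signal (57.4), the dotted line is the lowest pooled signal (11.8), and the 3 points above or at the dashed line belong to ceh-20, unc-62 and mab-5.

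Candidates were called in introns of 6 of the 10 genes, unc-62, lin-39, mab-5, egl-5, php-3 and nob-1, against 23.6% of genes with introns. Together these introns held 30 of the 58 candidates, 13 of them at unc-62. The share of all nuclear candidates that lie in introns is not given here, so this count has no background beside it. The 4 other genes have introns too, and the longest of ceh-60 is 2295 bp. The share of 23.6% was not matched for gene or intron length. The only intron candidate of egl-5 ranked 15847 and was matched in neither replicate. The 2 of php-3 ranked 15389, matched in both replicates, and 22335, matched in replicate 1 only. These egl-5 and php-3 candidates all had a q above 0.05, while unc-62, lin-39, mab-5 and nob-1 each had an intron candidate at or below it. Per kb of window, unc-62 had 0.834 candidates, nob-1 0.666 and php-3 0.600, all above the 95th percentile of all genes at 0.583. The 8 php-3 candidates are all counted for nob-1 too, so these are not 2 separate dense genes. Replicates 1 and 2 had 7 and 9 candidates in the nob-1 window, where the pooled list had 11. In the php-3 window they had 6 and 7, where the pooled list had 8. The median was 0.372 per kb over the 10 genes and 0.239 over all genes, and 8 of the 10 lay above the latter. ceh-40, at 0.0790, and ceh-60, at 0, lay below it. Summed signal per kb was highest at unc-62 (21.7) and ceh-20 (17.6), the 2 genes above the 95th percentile of 16.2. At ceh-20 this came from 1 peak, while at unc-62 it was shared among many.

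**Figure D3:**
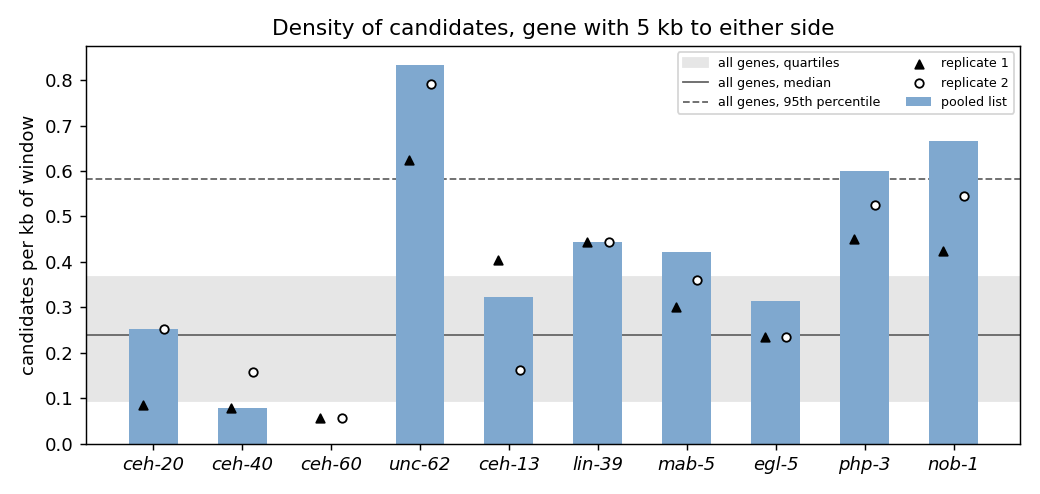
Candidates per kb of each gene's window, the gene with 5000 bp to either side, as bars for the pooled list, triangles for replicate 1 and circles for replicate 2. The grey band, the line and the dashed line are the quartiles, the median (0.239) and the 95th percentile (0.583) over 19973 genes, and unc-62, php-3 and nob-1 exceed the dashed line in the pooled list.

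The Hox genes of chromosome III lie in 3 pairs, and the pairs differed in where the stronger sites fell. Between mab-5 and egl-5, a gap of 30919 bp, lay 13 candidates, including the mab-5 peak and another optimal peak at chrIII:7791888-7792331. The latter lies 8656 bp upstream of mab-5, outside the 5000 bp window, and 3186 bp from the 5′ end of cyk-7, the 1 other protein-coding gene in the gap. Its pooled signal was 71.6 at rank 696, and the replicates gave 35.5 and 35.9, with a CACATG within 50 bp of the summit. The gap of 19027 bp between lin-39 and ceh-13 held 5 candidates, of which the best ranked 5508 and none was optimal. The php-3 and nob-1 pair had 11 candidates and none optimal. Per kb, with 5000 bp to either side, the lin-39 pair had 0.381 candidates, the mab-5 pair 0.417 and the nob-1 pair 0.547. With 2 replicates these densities ranged from 0.305 to 0.457 for the first pair and from 0.348 to 0.448 for the last, and were 0.278 in both replicates for the mab-5 pair, so the ranges of the first and last pair overlap.

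Replicates shared the stronger sites of these genes and few of the weaker ones. Both replicates matched 22 of the 58 candidates within 200 bp, 37.9% with an exact 95% binomial interval of 25.5 to 51.6, against 32.8% of all nuclear candidates. Of the 22, 2 were the ceh-20 candidates that share their replicate sites. Replicate 1 alone matched 15, replicate 2 alone 16, and neither matched 5. All 13 candidates with a q of 0.05 or below were matched in both, against 92.7% of such candidates over the nuclear genome. A further 7 candidates of replicate 1 and 16 of replicate 2 had no pooled counterpart, and 0 of these 23 were found in the other replicate. The interval treats sites as independent, which they are not, and covers counting error only.

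**Figure D4:**
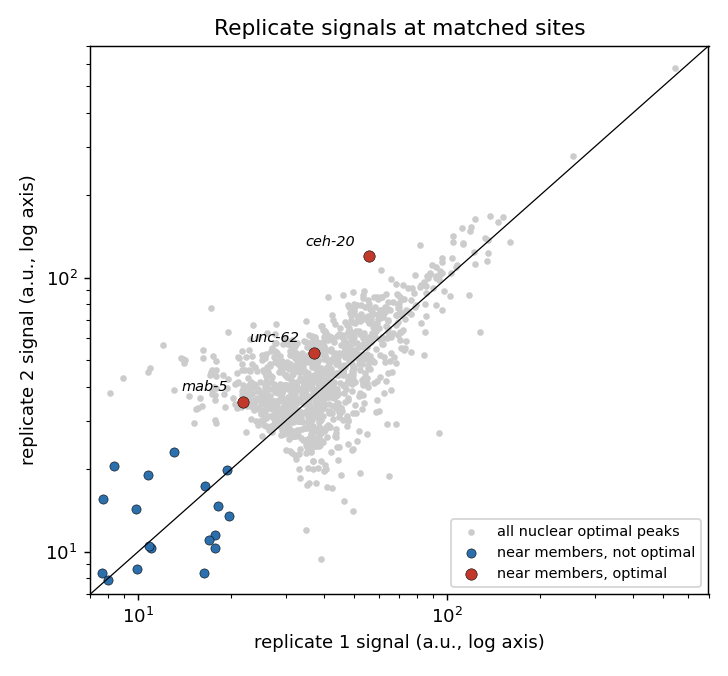
Signal in replicate 2 against replicate 1, in arbitrary units on log axes, for candidates near the 10 genes that both replicates matched, with all nuclear optimal peaks in grey and the line of equal signal. The optimal peaks of ceh-20, unc-62 and mab-5 (red) lie above the line, ceh-20 the farthest at a log2 ratio of 1.09.

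An E-box of any class lay within 50 bp of 28 of the 58 summits, 48.3% with an exact 95% binomial interval of 34.95 to 61.8. The share was 35.1% over nuclear pooled candidates and 48.9% over nuclear optimal peaks, both strands being read. As for replicate agreement, the interval treats sites as independent, which they are not, and covers counting error only. Of the 13 candidates with a q of 0.05 or below, 8 held one, against 45.2% over the genome. CAAATG was the most frequent class near these genes, at 8 summits (13.8%, against 7.09% of optimal peaks and 7.87% of pooled candidates). Of these 8, only the lin-39 site at rank 2972 had a q of 0.05 or below. CAGATG followed at 7 (12.1%, against 14.4% and 6.34%) and CAACTG at 4 (6.90%, against 5.73% and 5.11%). CAAGTG and CATATG each lay at 3 (5.17%). For CAAGTG the shares were 6.55% of optimal peaks and 4.37% of pooled candidates, and for CATATG they were 4.09% and 2.13%. The CATATG sites were the nob-1 site and a pair of weak sites upstream of unc-62. CACATG lay at 0 of the 58, which allows a share of up to 5.17% by the limit of 3 counts, against 11.5% of optimal peaks and 4.70% of pooled candidates. Summit windows near these genes had a median GC content of 40.6%, the same as over all nuclear candidates, while that of the optimal list was 49.5%.

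Core sites of the Hox and TALE proteins themselves were also counted in these windows, on both strands, with the repeat GAGAGA, which is no homeodomain site. TGATNNAT, the core of a joint Pbx and Hox site, occurred at 4 of the 58 summits (6.90%), against 6.36% of pooled candidates and 3.45% of optimal peaks. TGACAG, the Meis site, occurred at 3 (5.17%, against 3.30% and 3.55%), each with a q above 0.05. GAGAGA occurred at 8 (13.8%, against 11.2% and 26.1%), the unc-62 optimal peak among them. No tRNA, snoRNA, snRNA or miRNA gene lay within 500 bp of any of the 58 summits. The share of all nuclear candidates near such a gene is not given here, so this count has no background beside it.

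Other genes of the pathway were read in the same way. Of 13 regulators of Hox expression, 3 had an optimal summit within 5000 bp, against 13.8% of all genes. A candidate with a q of 0.05 or below lay near 9 of the 13, against 37.4%. These shares were not matched for gene length. The median best rank of the 13 was 2032. It was 2060 over the 9 Hox and TALE genes with a candidate, ceh-60 being left out and the site shared by php-3 and nob-1 counting for both, and 5303 over all genes with a candidate. The 3 were lin-59, a trithorax-group gene with a summit 506 bp upstream at rank 184, sor-1 at 651 bp and rank 951, and sor-3 at 268 bp and rank 118, where a tRNA gene lies within 500 bp. sor-1 and sor-3 take part in the repression of Hox genes. At lin-59 the replicates gave 70.8 and 55.3, while at sor-1 they gave 16.2 and 54.7. No E-box lay within 50 bp of the lin-59, sor-1 or sor-3 summit.

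Of 8 further TALE genes and reported targets of Hox proteins or CEH-20, 3 had an optimal summit, against 13.8% of all genes. A candidate with a q of 0.05 or below lay near 6 of the 8, against 37.4%. Of the 6, elt-6 was counted only through a site inside egl-18, which counts for egl-18 too. The only such site of egl-1 lay nearer to the 5′ end of F23B12.1. Here too the shares were not matched for gene length. The best site of hlh-8 itself ranked 19, with no E-box within 50 bp of its summit. Copies of the transgene and binding cannot be told apart there. egl-17, which encodes a fibroblast growth factor, ranked 121 at a summit inside a tRNA gene in its intron 2, with a CACATG. egl-18, a GATA factor gene of the epidermis that also lies next to elt-6, had a summit 1257 bp upstream, inside F55A8.6, at rank 613 with a CAGATG, and replicate signals of 29.8 and 44.2. The TALE genes psa-3 and irx-1 had best ranks of 8149 and 6348.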

How the data were processed

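Candidate peaks with background for each replicate and for both replicates together, and the optimal list kept by an irreproducible discovery rate step, were used as deposited by the authors on ce11, per the file inventories. The sources used here give neither the aligner nor the peak caller. Per the labels, the 2 replicates form 1 group. The signal of a peak and its −log10 q are the authors' deposited caller values. Whether signal was scaled for depth is not given, and read depth is unknown, so no counting interval belongs to a signal.

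Ranks were taken from the signal. Summits were set against Ensembl release 115 protein-coding transcripts of WBcel235, the ce11 assembly, within 5000 bp of a gene, and coordinates are 1-based. Replicate summits within 200 bp counted as matched. E-boxes were counted in the 101 bases around each summit. The background is every nuclear protein-coding gene or nuclear candidate. With 1 group no test was run. The members and gene lists were chosen with earlier results of these data known, and the q threshold and the motifs other than E-boxes were added after the lists had been read. All 10 genes were named, with every gene nearer to or overlapping their candidates and the pathway genes with an optimal peak. Placement, E-box search and matching were tested on simulated positions. Calculations used Python 3.11.15, numpy 2.4.6, pandas 2.3.3, scipy 1.17.1 and matplotlib 3.10.9. The ce10 lists were not used here.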

Additional observations from a re-analysis of the deposited data

How the results depend on the processing

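Optimal peaks near the 10 genes numbered 6 in place of 3 within 10000 bp. The added peaks lay 7801 bp upstream of ceh-20 (rank 905, 170 bp from the 5′ end of rfc-4), past the 3′ end of lin-39 (rank 65, inside cux-7) and in the gap upstream of mab-5. Without replicate 2, and among the stronger 560 optimal peaks, mab-5 was lost and 2 genes had a peak, and without replicate 2 the optimal sites ranked 193 (ceh-20), 609 (unc-62) and 1942 (mab-5). The promoter window dropped unc-62. E-boxes lay at 65.5% of summits within 100 bp, where pooled candidates had 56.5% and optimal peaks 65.7%. Within 25 bp they lay at 29.3%, where pooled candidates had 19.4% and optimal peaks 31.0%. Candidates per kb were 0.431 for the mab-5 pair and 0.432 for the nob-1 pair with 10000 bp to either side. Leaving out a replicate gave 0.278 for the mab-5 pair and 0.348 to 0.448 for the nob-1 pair, with the other replicate's list in place of the pooled one, and the cause was not tested. The 36 other values stayed within 1.5 times the main count, within the exact interval of a share, or within 1 SD between replicates of a rank or density. That SD comes from the same 2 replicate values that stand in when a replicate is left out, so it is no independent measure. The mab-5 pair had the same density in both replicates, so any change there counted as moved. A q of 0.01, added after the data had been seen, left 7 genes with a candidate, and the single replicates gave 5 and 6 with a q of 0.05. No paired analysis was possible because there is 1 group. Unknown depth limits what an uncalled site means.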
